A study of Mus musculus with 72 samples.

Results

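Brown adipose tissue (BAT) of young control mice was compared here with every other brown array of the series on which both lipase transcripts were at control level, whatever its label. The first set was the 5 arrays labelled control BAT at 3 months. The second set was the other arrays with a log2 signal of Ucp1 above 11, of Pnpla2 of 12 or more and of Lipe of 8.5 or more, which 8 arrays met. The 13 arrays came from 72, and 59 arrays were in neither set. The members of the second set were thus chosen by their measured Ucp1, Pnpla2 and Lipe signals. For that reason it was described by its range and median and no test was made against it.

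In BAT, lipid droplets supply fatty acids that mitochondria burn, and uncoupling protein 1 (UCP-1, Ucp1) lets the energy leave as heat. Adipose triglyceride lipase (ATGL, encoded by Pnpla2) removes the first fatty acid from a triglyceride, and hormone-sensitive lipase (HSL, encoded by Lipe) hydrolyses the diglyceride that remains. White adipose tissue (WAT) stores fat in large droplets and is the main source of leptin.

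RNA was profiled on Illumina MouseRef-8 v2.0 bead arrays, which carry several beads for each probe. The series held control, ATGLAKO (without ATGL in fat), HSLAKO (without HSL in fat) and DAKO (without both) mice on a C57BL/6J background, with interscapular BAT at 3, 7 and 12 months, perigonadal WAT at 3 months and DAKO BAT at 14 months. Controls carried the Fabp4-Cre transgene alone, and HSLAKO mice carried it with 2 floxed Lipe alleles. DAKO mice came from crossing both single knockout lines. The paper describes 14 months as the tumor stage (liposarcoma) of DAKO BAT. The Fabp4 promoter that drives Cre is active in adipose tissues, and which cells of the tissue kept their lipases was not tested. The sources used here do not say where the Pnpla2 and Lipe probes lie relative to the deleted exons. The labels do not say outright that replicates were separate mice. The p-values thus measure the spread between samples within labelled groups, pooled over all groups of the fit.

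The second set did not follow the labels. It held 1 of 3 arrays labelled control WAT at 3 months (replicate 2), 2 of 5 labelled ATGLAKO BAT at 3 months (replicates 1 and 2), 2 of 4 labelled ATGLAKO BAT at 7 months (replicates 3 and 4), 2 of 4 labelled ATGLAKO BAT at 12 months (replicates 1 and 2) and 1 of 5 labelled ATGLAKO WAT at 3 months (replicate 5). On the 7 arrays labelled ATGLAKO, Pnpla2 stood at control level, and on the 2 arrays labelled WAT, Ucp1 stood at the level of BAT. Whether the labels match these arrays was not tested, so a difference against a labelled group describes the groups as labelled. The rule took 0 of the 8 arrays labelled control BAT at 7 and 12 months, on which Ucp1 ran from 4.33 to 8.25. The 8 arrays are therefore called the other lipase-intact brown arrays, after the signals that chose them and not after a genotype, an age or a depot.

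Ucp1, on a log2 scale after normalization, read 13.73, 13.68, 13.61, 13.62 and 13.82 on the control replicates 1 to 5. On the other 8 arrays its lowest, median and highest signals were 13.23, 13.56 and 13.89. The signals of both sets lay close to the top of the scale. Pnpla2 read 13.31, 12.94, 12.91, 13.10 and 13.23 on the control arrays, against 12.85, 13.19 and 13.31. Lipe read 9.31, 9.50, 9.78, 9.81 and 9.95 on the control arrays, against 9.27, 9.72 and 10.37. The lowest values inside the rule, Pnpla2 at 12.85 (control WAT replicate 2) and Lipe at 9.27 (ATGLAKO BAT at 7 months, replicate 3), were clear of its thresholds. Just outside lay an array labelled HSLAKO BAT at 7 months (replicate 4), with Lipe at 8.47 and Pnpla2 at 13.85, and ATGLAKO BAT at 3 months replicate 5, with Pnpla2 at 11.95 and Lipe at 8.33. In addition, 4 arrays passed both lipase thresholds with Ucp1 between 4.51 and 4.88 and were left out by the Ucp1 threshold. Of these, control BAT at 12 months replicates 1 and 3 are labelled brown fat of controls, and the other two are labelled ATGLAKO WAT at 3 months.

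**Figure D1:**
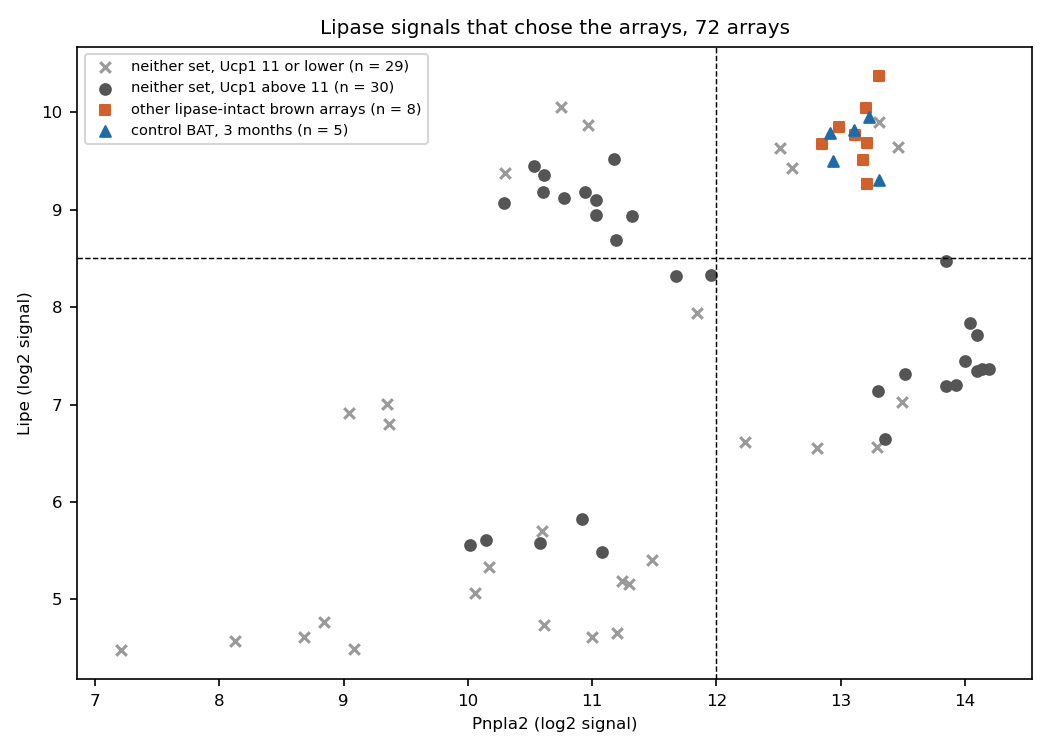
Log2 signal of Pnpla2 (x axis) and of Lipe (y axis) on each of the 72 arrays, 1 point per array, with dashed lines at the thresholds of 12 and 8.5. The 5 control BAT arrays at 3 months (triangles) and the 8 other lipase-intact brown arrays (squares) share the upper right corner with 4 arrays on which Ucp1 was 11 or lower (crosses).

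The 13 arrays were alike in quality. Their median raw signals ran from 96.7 to 104.2 and 45.0 to 48.3% of probes were detected (a detection p under 0.05 against the negative control beads). The Pearson correlation over the tested genes was 0.970 to 0.987 within the control set (10 pairs), 0.941 to 0.991 within the other set (28 pairs) and 0.927 to 0.977 between the sets (40 pairs). The array labelled ATGLAKO BAT at 12 months replicate 1 was the only one of the 8 whose mean correlation with the control set (0.971) was above that with the rest of its own set (0.964). The median standard deviation of a gene over the 5 control arrays was 0.211, the lowest of the 17 labelled groups (0.230 to 0.430 in the rest).

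Of 12265 genes, 264 lay higher on all 5 control arrays than on any of the other 8 (2.15% of genes tested) and 205 lay lower (1.67%), so that 469 did not overlap in either direction (3.82%). The medians of the sets were over 1 log2 unit apart for 82 of the higher genes (0.669%) and for 27 of the lower genes (0.22%). In bulk tissue, fewer cells of a type and less RNA per cell cannot be told apart in any of these differences.

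The genes with the largest difference were genes chiefly expressed in liver, most of them for secreted plasma proteins. Of 20 liver-type genes listed, 16 were measured, and 10 of these lay above the other 8 arrays on all 5 control arrays, against 2.15% of all genes tested. None lay below. The median over the 16 genes was 3.35 higher in the control set, where the median over all genes differed by 0.0034. The 10 genes were Ahsg, Ambp, Apoa1, Apoa2, Apoc1, Fga, Fgg, Fgl1, Itih4 and Ttr. The other 6 (Apoc3, Apoh, Cyp2e1, Hp, Serpina1a and Trf) overlapped, and Hp, which adipocytes also make, had the lower median in the control set (difference -0.54).

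Apoa1, the main protein of high-density lipoprotein, read 7.87, 11.39, 10.32, 8.24 and 10.73 on the control arrays and 4.25, 4.74 and 5.68 (lowest, median, highest) on the other 8. It was detected on 3 of the other 8 arrays, so no exact fold is given. Apoa2, its companion on the same particle, read 8.83, 11.62, 10.44, 8.53 and 10.66 against 4.50, 6.08 and 7.09. Both genes were highest on control replicate 2 and lowest on replicates 1 and 4, and the sets did not overlap. Fga, a chain of fibrinogen, read 7.21, 10.84, 9.59, 7.34 and 9.62 against 4.25, 4.38 and 4.96. Fgg, another of its chains, read 6.90, 9.99, 9.37, 6.63 and 9.51 against 4.42, 4.70 and 5.31. Ttr, the carrier of thyroid hormone and retinol-binding protein, read 9.05, 12.32, 10.51, 8.98 and 10.76 against 4.30, 5.36 and 6.22. All 5 genes were lowest on replicates 1 and 4, and Fga was detected on 2, Fgg on 2 and Ttr on 4 of the other 8 arrays.

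The promoter of Fga is shown because it was the member of the list with a match to a liver element. The 300 bases around its start (GRCm38.p6, chr3:83025903-83026202, plus strand, RefSeq) hold 1 match to GTTAAT, a half-site of the liver factor HNF1, on the minus strand. It is in capitals, read as ATTAAC, and begins at base -43.
Fga: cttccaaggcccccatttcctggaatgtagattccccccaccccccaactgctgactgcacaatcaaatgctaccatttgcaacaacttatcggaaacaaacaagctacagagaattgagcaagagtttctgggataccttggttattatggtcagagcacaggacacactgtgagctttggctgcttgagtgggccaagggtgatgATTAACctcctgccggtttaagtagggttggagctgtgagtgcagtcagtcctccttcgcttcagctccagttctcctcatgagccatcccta
GTTAAT, searched on both strands, occurred in 7.1% of 32851 promoters. Of the 10 liver-type genes above, 7 had a promoter in the table and 1 held a match. A match is a description of the letters and not of binding.

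Other liver-type genes also stood apart. Ahsg (fetuin-A) read 7.43, 10.46, 9.38, 7.53 and 9.74 against 4.27, 4.37 and 5.03. Ambp, the precursor of alpha-1-microglobulin, read 7.49, 11.19, 9.62, 7.68 and 9.77 against 4.25, 4.63 and 4.97. Hpx, which binds free heme, read 6.86, 9.42, 9.76, 6.12 and 10.05 against 4.35, 4.58 and 4.97. Hpx was highest on replicate 5 and not on replicate 2. Mat1a, the liver form of the enzyme that makes S-adenosylmethionine, read 7.27, 10.81, 9.08, 7.37 and 9.21 against 4.22, 4.36 and 4.89. It was above background on 0 of the other 8 arrays, so its difference is a bound of at least 14.7-fold. This bound is the mean of the control set over the median of the lowest detected signals on the other arrays. Without control replicate 2 it was 10.3-fold. Serpina1d and Serpina1b, which encode antitrypsins, differed by 5.15 and 4.75 in medians, and Mup2, a major urinary protein, by 4.35. Probes of the Serpina1 and Mup families may read close copies of their gene. Itih4, Fgl1 and Apoc1 differed by 3.69, 2.49 and 0.79. Gnmt, a methyltransferase that uses S-adenosylmethionine, differed by 2.62.

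The mean of the 16 liver-type genes was 8.08, 10.41, 9.44, 7.92 and 9.57 on control replicates 1 to 5 and 5.83 to 6.64 on the other 8 arrays. Of these genes, 14 were detected on all 5 control arrays and 4 on all of the other 8. The control arrays differed widely among themselves, by up to 3.70 log2 units in one of the non-overlapping genes. Replicate 2 was the highest for 10 of the 10 non-overlapping liver-type genes, and replicates 2, 3 and 5 were all above replicates 1 and 4 for 9 of these 10. That order held for 52 of the 82 higher genes over 1 log2 unit apart (63.4%) and for 68 of the 264 higher genes (25.8%). It held for 4 of the 27 lower genes over 1 log2 unit apart (14.8%) and for 1343 of all genes (10.9%). The order was chosen after the values were seen, and the higher genes include the liver-type genes, so these shares are a description. High liver-type signals were not limited to the control set: 13 of the 59 arrays in neither set were at or above its lowest array, with a highest mean of 10.80, and among them were the 4 arrays labelled control BAT at 12 months (9.59 to 10.80). The part of liver-type signal in the other differences was not tested.

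**Figure D2:**
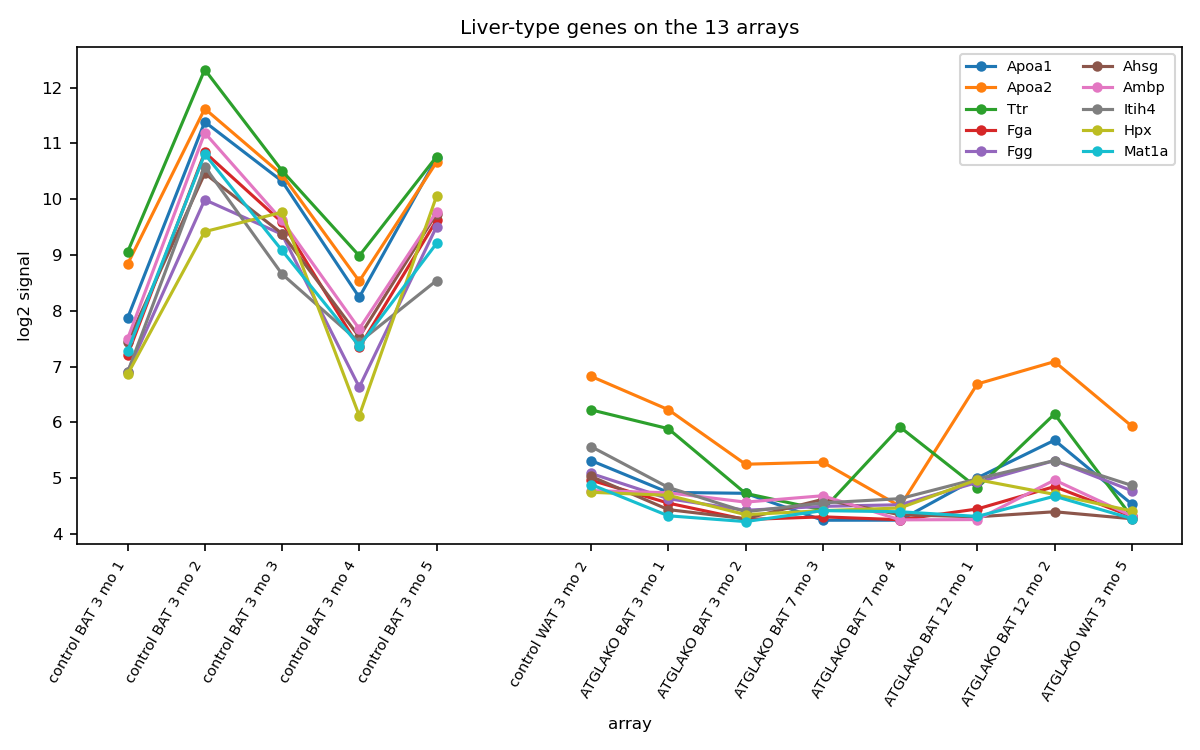
Log2 signal (y axis) of 10 liver-type genes, 8 of the liver-type list with Hpx and Mat1a, on each of the 13 arrays (x axis). Lines join the values of 1 gene and carry no order. All 10 genes are higher on each of the 5 control BAT arrays at 3 months (left) than on any of the 8 other lipase-intact brown arrays (right), and the control arrays share 1 profile with low points at replicates 1 and 4.

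A few genes of fatty acid handling lay apart, in lists where most genes overlapped. Mfsd2a, a carrier of lysophosphatidylcholine that fasting induces in liver and BAT, read 11.51, 9.18, 6.65, 8.43 and 7.03 against 4.25, 4.42 and 5.57. It was highest on control replicate 1, unlike the liver-type genes, and was chosen for mention after its values were seen. Acot1, a cytosolic acyl-CoA thioesterase and target of PPAR alpha, read 10.58, 10.87, 10.96, 10.86 and 9.92 against 7.74, 8.51 and 9.54. Its 5 control signals lay closer together than the 8 others, and its medians were 5.09-fold apart. Acot1 shares much of its sequence with Acot2, whose probe read 7.29 to 8.01 against 7.37 to 8.81 and overlapped. Cyp4a14, a fatty acid omega-hydroxylase, read 6.12, 9.63, 6.81, 5.97 and 5.55 against 4.17, 4.33 and 4.72. Its highest signal was on control replicate 2, as for the non-overlapping genes of the liver-type list, and its lowest on replicate 5. It was above background on 0 of the other 8 arrays, which puts the difference at 3.85-fold or more, and at 2.36-fold or more without control replicate 2. Among 13 acyl-CoA thioesterases measured, 1 lay above (Acot1) and 12 had the higher median in the control set. Of 25 genes of fatty acid oxidation, 1 lay above (Cyp4a14), beside 2.15% of all genes. No gene of the TCA cycle (20 measured) was apart, and of the respiratory chain (66 measured) only Atp5d was, with 12.38 to 12.58 on the control arrays against 11.90 to 12.31.

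Most brown thermogenic genes overlapped between the sets, with somewhat higher levels in the control set. Of 22 measured beside Ucp1, which chose the arrays, 2 lay above (9.09%, beside 2.15% of all genes) and 0 below, 15 had the higher median, and the median difference was 0.16. The mean of these 22 genes was 10.62 to 10.80 on the control arrays and 10.18 to 10.62 on the other 8, of which 7 lay below the lowest control array. Kcnk3, a potassium leak channel of brown fat, read 10.04, 10.29, 10.07, 10.12 and 9.92 on the control arrays against 7.88, 8.95 and 9.15, and 9.35 was its highest signal on the 59 arrays in neither set. Ppargc1a, the coactivator of mitochondrial genes, read 9.05, 9.08, 9.28, 9.15 and 9.41 against 7.65, 8.21 and 8.94. Kcnk3 kept this order when arrays were scaled to a common median, and Ppargc1a then overlapped. Elovl3, a fatty acid elongase of active brown fat, read 8.82, 8.25, 8.06, 7.63 and 8.19 against 5.64, 6.93 and 9.02 and overlapped. Cidea and Cox8b, markers of brown fat, read 13.49 to 13.83 and 13.72 to 13.89 on the control arrays against 13.45 to 13.91 and 12.70 to 14.00. Dio2, which activates thyroid hormone, was near background on both sides, at 4.98 to 5.87 against 4.25 to 5.72. Neither lipase was a finding, since both chose the arrays. Of the other 8 lipolysis genes measured, 0 lay apart. Abhd5, the coactivator of ATGL, had the largest of their differences in medians, at 9.35 to 9.88 against 8.75 to 9.65. G0s2, the inhibitor of ATGL, read 10.36 to 11.27 against 9.64 to 11.36.

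Sgk2, Hip1r, Ccno and Pim1 also lay above the other 8 arrays. Sgk2, a kinase of the serum- and glucocorticoid-regulated family, read 7.25, 7.70, 7.02, 6.59 and 7.51 against 4.55, 4.79 and 5.38, and did not exceed 6.49 on the 59 arrays in neither set. Hip1r, an adaptor of clathrin-coated pits, read 8.08, 7.76, 7.20, 7.18 and 6.64 against 4.98, 5.76 and 6.06, with 6.44 as its highest signal elsewhere. Both genes were thus higher on the 5 control arrays than on the 67 others, as were 34 genes in all (0.277% of genes tested), while 53 were lower than on the 67 others (0.432%). Ccno, a cyclin-like protein needed for multiciliated cells, read 6.41, 6.38, 6.45, 6.29 and 5.85 against 4.35, 4.46 and 4.71, and was above background on 0 of the other 8 arrays, a difference of at least 2.64-fold. Pim1, a kinase of cytokine signalling, read 6.96, 6.66, 7.02, 6.75 and 6.77 against 4.80, 5.76 and 6.07.

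Of 12 glucocorticoid-responsive genes measured, 3 lay above in the control set (Mt1, Mt2 and Per1), beside 2.15% of all genes, and 0 below. The other 9 overlapped, 9 of the 12 medians were higher and 3 lower, and the median difference was 0.56. Against all arrays labelled control WAT at 3 months and ATGLAKO BAT at 3, 7 and 12 months, the list's median log2 difference was -0.45, -0.47, -0.08 and 0.11. Against ATGLAKO WAT at 3 months it was -0.72. On the 59 arrays in neither set the list mean was 8.75 to 11.66. Mt1, a metallothionein that binds zinc, read 14.10, 13.85, 13.55, 13.56 and 13.76 against 11.69, 12.77 and 13.10. Mt2, its neighbour on chromosome 8, read 8.31, 6.87, 6.49, 6.79 and 7.40 against 4.64, 5.62 and 6.21. Per1, a clock gene, read 9.91, 9.11, 8.28, 8.37 and 8.32 against 6.96, 7.74 and 8.17. These 3 genes were highest on control replicate 1, and the mean of the list was 10.54 there against 9.44 to 9.73 on the other 4 control arrays and 8.96 to 9.27 on the other 8 arrays. On that array Fkbp5, a glucocorticoid target, read 9.41 where the other 4 control arrays read 5.69 to 6.56, and Nr1d1, a clock repressor, read 7.24 where they read 8.62 to 9.03. Without control replicate 1 the genes that lay above numbered 476 in place of 264. Leaving out any array cannot lower this count, by construction.

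The promoters of Mt1 and Mt2 (GRCm38.p6, RefSeq, both on the plus strand) are shown because the genes lie side by side and were higher on the same arrays. Capitals mark TGCGCNC or TGCACNC, the core of the metal response element, on either strand. Mt1 (chr8:94178839-94179138) holds 3 matches and Mt2 (chr8:94172368-94172667) holds 4, the capitals in Mt2 that begin with G being on the minus strand. The matches begin at bases -23, 3 and 21 in Mt1 and at -223, -128, -50 and 5 in Mt2, so some lie after the start.
Mt1: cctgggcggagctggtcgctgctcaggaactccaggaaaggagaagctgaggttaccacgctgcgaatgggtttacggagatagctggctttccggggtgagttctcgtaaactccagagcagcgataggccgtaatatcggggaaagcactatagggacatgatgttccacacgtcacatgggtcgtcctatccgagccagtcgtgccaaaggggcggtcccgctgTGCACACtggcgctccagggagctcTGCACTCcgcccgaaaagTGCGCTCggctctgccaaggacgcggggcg
Mt2: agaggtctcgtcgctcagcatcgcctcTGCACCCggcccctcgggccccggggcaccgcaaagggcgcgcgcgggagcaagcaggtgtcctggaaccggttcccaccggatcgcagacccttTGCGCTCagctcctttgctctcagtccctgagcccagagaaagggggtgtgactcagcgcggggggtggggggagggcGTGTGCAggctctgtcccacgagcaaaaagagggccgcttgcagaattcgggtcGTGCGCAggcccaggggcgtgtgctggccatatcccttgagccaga
At least 1 match occurred in 25.7% of 32851 promoters and at least 3 in 1.97%.

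Of 20 immediate early genes measured, 1 lay above, beside 2.15% of all genes, and 17 had the higher median in the control set. With all arrays of the 5 labelled groups that held the other arrays, the median log2 difference of the list was negative, from -0.51 to -0.11. The list mean was 6.37 to 7.19 on the control arrays, 6.26 to 7.17 on the other 8 and 6.49 to 8.41 on the 59 in neither set. Nr4a2, an orphan nuclear receptor, read 7.60, 6.72, 8.30, 8.02 and 6.79 against 5.37, 5.85 and 6.58. Fos overlapped, at 6.35, 5.26, 8.30, 8.88 and 4.74 against 4.32, 5.30 and 7.84, and both genes were highest on control replicates 3 and 4. Of 19 genes of the integrated stress response, Asns (10.27 to 10.61 against 9.96 to 10.27) and Cebpb lay above. Cebpb, a transcription factor of adipocyte differentiation, read 12.36, 12.28, 12.72, 12.75 and 12.43 against 11.45, 11.82 and 12.07. When arrays were scaled to a common median, Nr4a2 overlapped too.

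Leptin was the gene with the largest difference in the other direction. Lep read 6.63, 6.05, 7.10, 7.58 and 9.07 on the control arrays and 9.87, 10.36 and 11.72 (lowest, median, highest) on the other 8, a 9.60-fold difference of medians. Its median on the 59 arrays in neither set was 11.56. Control replicate 5 was the highest of its set and still lay below the lowest of the other arrays. In the adipocyte hormone list (14 measured) Lep and Nnat lay below and Rbp4, the retinol-binding protein, above (6.90 to 7.47 against 5.54 to 6.74). Adipoq, the most abundant hormone of adipocytes, read 12.63 to 12.87 against 12.16 to 12.65 and overlapped, and Retn (resistin) was near background on both sides.

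The promoter of Lep is shown because the difference in Lep was the largest among the lower genes. It lies at chr6:29059971-29060270 (GRCm38.p6, plus strand, RefSeq) and holds 1 copy of the C/EBP palindrome TTGCGCAA, in capitals, at base -55.
Lep: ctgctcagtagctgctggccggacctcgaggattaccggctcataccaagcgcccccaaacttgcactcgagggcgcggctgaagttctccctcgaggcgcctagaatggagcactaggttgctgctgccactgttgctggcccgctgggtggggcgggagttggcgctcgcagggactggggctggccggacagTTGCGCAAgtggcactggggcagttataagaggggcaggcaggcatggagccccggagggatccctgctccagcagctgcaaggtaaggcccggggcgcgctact
The palindrome, which reads the same on both strands, occurred in 0.183% of 32851 promoters.

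The rest of the lower genes were of mixed kinds. Cryab, a small heat shock protein abundant in muscle, read 7.68, 7.65, 8.21, 8.18 and 7.71 against 8.40, 10.28 and 10.94, and its low value of 8.40 was on the array labelled ATGLAKO BAT at 12 months replicate 1. It overlapped when arrays were scaled to a common median. Nnat (neuronatin), a proteolipid of the endoplasmic reticulum, read 4.82, 4.72, 4.99, 4.36 and 5.47 against 6.27, 7.17 and 8.14 and was detected on 2 of the 5 control arrays. Cdsn (corneodesmosin) read 5.34, 5.17, 5.25, 5.35 and 5.82 against 6.70, 7.36 and 8.15. Sucnr1, the receptor for succinate, read 4.39, 4.62, 5.25, 5.91 and 6.07 against 6.50, 7.01 and 7.36. Gpc1 (glypican-1), a cell surface heparan sulfate proteoglycan, read 8.15, 8.12, 8.37, 8.40 and 8.42 against 8.89, 10.04 and 11.32, so that the other 8 arrays were far more spread than the control arrays. Dnmt3l, a cofactor of DNA methyltransferases, read 4.29 to 4.49 against 5.25, 5.71 and 6.75. Lrtm1, Fsd2, Tmem45b, Lctl and Olfm1 differed in medians by -1.68, -1.17, -1.24, -1.26 and -1.20 (control minus other).

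**Figure D3:**
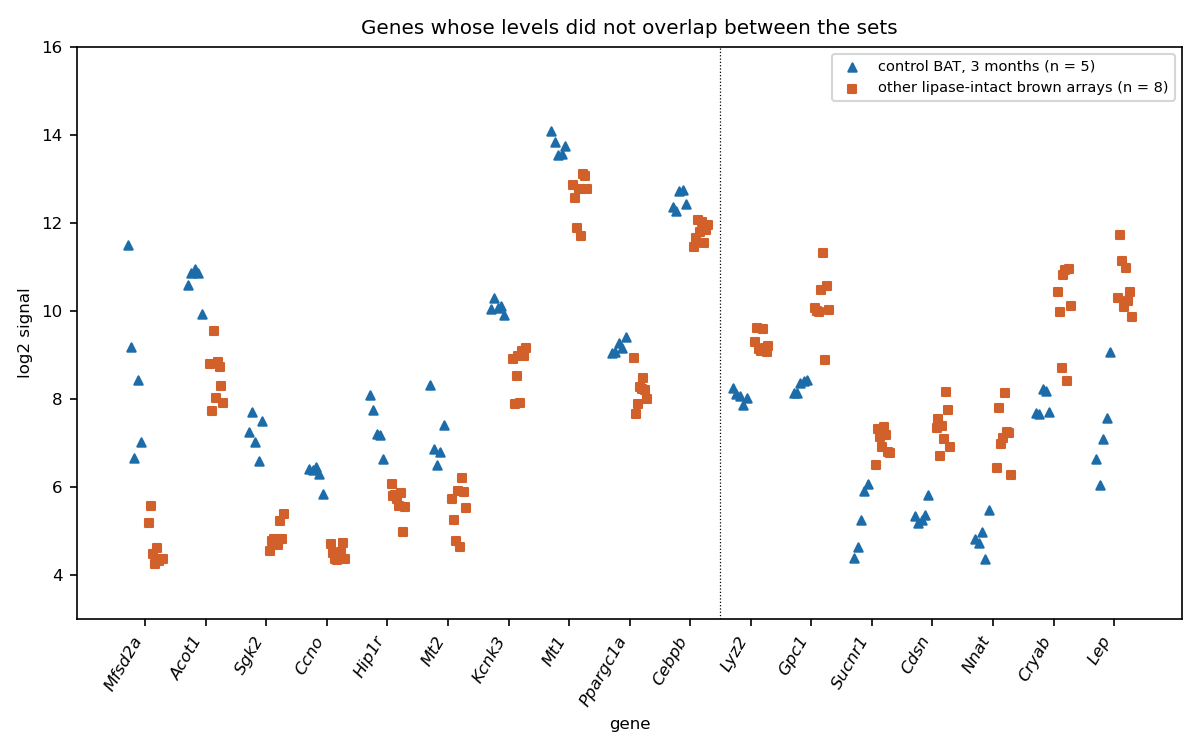
Log2 signal (y axis) of 17 genes (x axis) on the 5 control BAT arrays at 3 months (triangles) and the 8 other lipase-intact brown arrays (squares), 1 point per array. Genes left of the dotted line lie higher and genes right of it lower on all 5 control arrays, with Mfsd2a, Mt2 and Lep the most spread among the control arrays.

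Macrophage and fibroblast genes had mostly lower medians in the control set. Of 23 macrophage genes, 4 lay below (Fcgr3, Lyz1, Lyz2 and Mrc1), beside 1.67% of all genes, and 0 above, 19 had the lower median, and the median difference was -0.48. Lyz2, the macrophage lysozyme, read 8.24, 8.11, 8.06, 7.86 and 8.03 against 9.06, 9.18 and 9.60. Lyz1 and Lyz2 are close copies, and their probes may not tell them apart. Lgals3 (galectin-3), a gene of lipid-laden macrophages, read 8.67, 8.28, 8.11, 8.02 and 8.70 against 9.05, 9.31 and 10.04. Both sets were low for macrophage genes: the list mean was 6.19 to 6.54 on the control arrays, 6.27 to 6.91 on the other 8 and 7.38 to 10.36 on the 59 arrays in neither set. Of 14 fibroblast and progenitor genes, 2 lay below (Dcn, at 11.01 to 11.29 against 11.43 to 12.27, and Prrx1, at 4.91 to 5.44 against 5.54 to 6.03), 0 above, and 14 had the lower median. Collagens (17 measured) and matrix metalloproteinases with their inhibitors (13 measured) had 1 gene each below. Other lists went either way: 7 of 9 MHC class II medians were lower in the control set, while in the interferon response list 17 of 26 were higher, in the T and NK cell list 10 of 13 and in the endothelial list 14 of 20, and of these lists 1 endothelial gene lay above.

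The skeletal muscle genes differed the most of the cell type lists after the liver-type list. All 28 measured muscle genes had the lower median in the control set, with a median difference of -2.39, but only Tpm1 lay wholly below. The mean of the list was 8.46, 8.38, 9.21, 8.76 and 8.12 on the control arrays and 9.90 to 11.99 on 7 of the other arrays, and 6.06 on the remaining array, ATGLAKO BAT at 12 months replicate 1. That array was the lowest of the 8 for 27 of the 28 genes and below the 5 control arrays for 23 of them. Without it, 27 of the 28 muscle genes lay below (96.4%), against 369 of all genes (3.01%). That array was singled out by its own muscle signal, so this recount is a description. On the arrays in neither set the mean of the list ran from 5.00 to 12.37. Against all arrays of the labelled groups, the list's median log2 difference ran from -2.42 (ATGLAKO BAT at 3 months) to 2.03 (ATGLAKO WAT at 3 months). Acta1, the actin of skeletal muscle fibres, read 11.78, 11.60, 12.49, 12.16 and 11.27 against 7.46, 13.70 and 14.14. Ckm, the muscle creatine kinase, read 8.90, 8.90, 9.79, 9.48 and 8.55 against 4.45, 11.56 and 12.63. The part of muscle signal in the other differences was not tested.

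**Figure D4:**
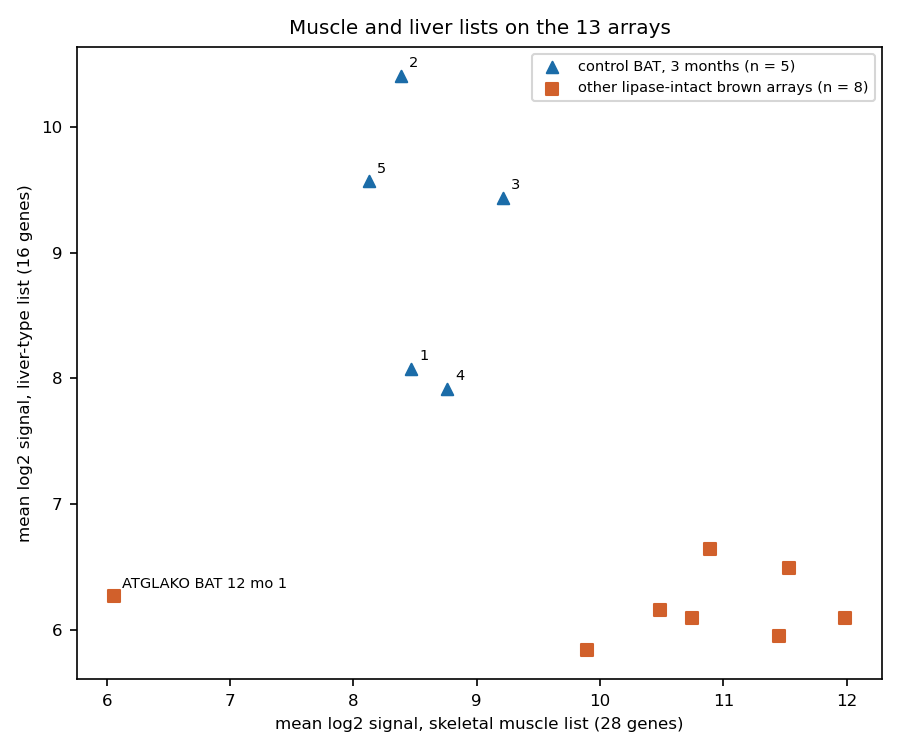
Mean log2 signal of 28 skeletal muscle genes (x axis) and of 16 liver-type genes (y axis) on each of the 13 arrays, 1 point per array, with control replicates numbered. The 5 control BAT arrays at 3 months (triangles) sit between 7.92 and 10.41 on the liver axis, above the 8 other lipase-intact brown arrays (squares) at 5.83 to 6.64, of which 1 lies far to the left on the muscle axis at 6.06.

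Epithelial surface cells were not a shared feature of the control set. The mesothelial list (13 measured) had a mean of 5.03 to 5.53 on the control arrays and 5.00 to 5.12 on the other 8, with the highest value on control replicate 2. Krt8, a keratin of simple epithelia and of hepatocytes, was the only member that lay above, and read 7.96 on that array and 5.08 to 5.39 on the other 4 control arrays.

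The 13 arrays also shared features that the rule did not use. Against the 59 arrays in neither set, 151 genes lay lower on all 13 (1.23%) and 10 lay higher (0.0815%), and against the 30 of these with Ucp1 above 11, 197 lay lower (1.61%) and 12 higher (0.0978%). The rule set lipase and Ucp1 signals high, so these counts are a description. The 59 arrays include the 5 of DAKO BAT at 14 months, the tumor stage, and 3 of these are among the 30. Lgals3 read 8.02 to 10.04 on the 13 arrays and 11.30 or more elsewhere, and C1qb, a chain of complement C1q made by macrophages, 7.82 to 8.90 against 9.10 or more. In all, 8 of 23 macrophage genes and 3 of 14 genes of lipid-associated macrophages were lower on all 13. Tfam, which packs and transcribes mitochondrial DNA, read 8.24 to 8.66 against 8.20 or less, and was 1 of the 10 higher genes.

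Tests were possible between labelled groups alone, with all of their arrays, whether or not the rule took them. The 5 control BAT arrays at 3 months were set against the 5 labelled groups that held other lipase-intact brown arrays, in 1 limma fit of the 72 arrays (called at an adjusted p below 0.01 with a log2 difference above 1.5 in size). These comparisons share the control arrays. By label, control WAT differed from them in depot and ATGLAKO BAT at 3 months in genotype. ATGLAKO BAT at 7 and 12 months differed in genotype and age, and ATGLAKO WAT in genotype and depot. Where genotype changed together with age or depot, their parts cannot be told apart. Against control WAT at 3 months (n = 3), 2 genes were higher (0.0163%) and 0 lower, with 1646 genes at an unadjusted p under 0.05. Against ATGLAKO BAT at 3 months (n = 5), 8 were higher (0.0652%) and 2 lower (0.0163%). Against ATGLAKO BAT at 7 months (n = 4), 21 were higher (0.171%) and 23 lower (0.188%). Against ATGLAKO BAT at 12 months (n = 4), 5 were higher (0.0408%) and 0 lower, with 1194 genes at an unadjusted p under 0.05. Against ATGLAKO WAT at 3 months (n = 5), 95 were higher (0.775%) and 193 lower (1.57%). With arrays scaled to a common median the last split was 42 higher and 1010 lower, and that at 7 months was 2 higher and 14 lower. The totals rose from 288 to 809 without ATGLAKO WAT replicate 5 and from 44 to 178 without ATGLAKO BAT at 7 months replicate 3. These groups each held 1 or 2 of the lipase-intact brown arrays beside others with low lipase or Ucp1 signals, and no gene was called in all 5 comparisons.

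Sgk2 and Hip1r were called in 4 of the 5 comparisons. Sgk2 averaged 7.21 ± 0.43 (SD, n = 5) in control BAT at 3 months. It was higher by 1.92 (SE 0.30, limma adjusted p = 0.000185) than in ATGLAKO BAT at 3 months, where it averaged 5.29 ± 0.66. It was higher by 2.61 (SE 0.32, adjusted p = 1.88e-07) than at 7 months, by 2.00 (SE 0.32, adjusted p = 0.000277) than at 12 months and by 2.29 (SE 0.30, adjusted p = 9.66e-07) than in ATGLAKO WAT. Against control WAT the difference of 1.72 (SE 0.35, adjusted p = 0.010008) missed the threshold. The 4 calls of Sgk2 held when any single array of the compared groups was left out. Under 4 other normalizations they held in 0 at 3 months, 2 at 7 months, 0 at 12 months and 2 against ATGLAKO WAT. On the authors' own scale, where folds of dim genes are smaller, Sgk2 was under the fold minimum against ATGLAKO BAT at 3 months, at 0.58 with an adjusted p of 2.3e-08.

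Hip1r averaged 7.37 ± 0.56 (SD, n = 5) in control BAT at 3 months and was higher by 1.63 (SE 0.30, limma adjusted p = 0.00106) than in ATGLAKO BAT at 3 months, by 1.77 (SE 0.31, adjusted p = 0.000519) than at 7 months, by 1.80 (SE 0.31, adjusted p = 0.00135) than at 12 months and by 1.72 (SE 0.30, adjusted p = 0.000149) than in ATGLAKO WAT. The calls of Hip1r passed the fold minimum in 0 of 4 other normalizations. Acot1 averaged 10.64 ± 0.42 and was called in 3 comparisons, by 2.69 (SE 0.55, adjusted p = 0.00479) against ATGLAKO BAT at 3 months, by 2.99 (SE 0.58, adjusted p = 0.00503) at 12 months and by 2.98 (SE 0.55, adjusted p = 0.000313) against ATGLAKO WAT. Of these calls of Acot1, that against WAT held when any single array was left out, and those against BAT held in 5 of 10 and 3 of 9 such fits. Against control WAT, Ccno was higher by 1.67 (SE 0.29, adjusted p = 0.00204) and Pim1 by 2.04 (SE 0.41, adjusted p = 0.00903), and the call of Pim1 held in 0 of 8 such fits. Under the 4 other normalizations the calls of Acot1 held in 4, 3 and 4, and both of these calls against control WAT in 0.

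Few of the liver-type genes were called. Of 16, 1 was called higher against ATGLAKO BAT at 3 months (Fgl1, 6.25% of the list beside 0.0652% of all genes), 3 at 7 months (Apoa2, Fgg and Fgl1, 18.8% beside 0.171%) and 0 in the other 3 comparisons. Apoa2 was higher by 4.72 (SE 1.09, limma adjusted p = 0.00882) in control BAT at 3 months than in ATGLAKO BAT at 7 months, a call that held in 2 of 9 fits with an array left out and 0 of 4 other normalizations. Fgl1 was higher by 1.74 (SE 0.36, adjusted p = 0.00506) than in ATGLAKO BAT at 3 months, which held in 3 of 10 and 0 of 4. Lep differed by -3.51 to -4.39 in the 5 comparisons and passed in none (adjusted p from 0.0139 to 0.197). Nnat was lower than in ATGLAKO BAT at 7 months (log2 difference -3.43, SE 0.75, adjusted p = 0.00648), and Gpc1 was lower than in ATGLAKO BAT at 3 months (-2.33, SE 0.49, adjusted p = 0.00640). The call of Nnat held in 2 of 9 fits with an array left out and 0 of 4 other normalizations, and that of Gpc1 in 2 of 10 and 2 of 4. Lgals3 (-3.71, SE 0.73, adjusted p = 0.000583), Sucnr1 (-3.16, SE 0.56, adjusted p = 0.000196) and Cdsn (-2.76, SE 0.61, adjusted p = 0.00200) were lower than in ATGLAKO WAT at 3 months, and these calls held in 10, 10 and 8 of 10 fits and in 4, 3 and 3 of 4 normalizations. Of 12265 genes, of which 469 did not overlap between the 2 sets of brown arrays, 65 were also called in at least 1 labelled comparison. Of these 65, 28 were higher and 37 lower in control BAT at 3 months. Both criteria use the same 5 control arrays, and the labelled groups held the other 8 arrays. The 65 genes are thus no independent support.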

How the data were processed

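RNA was extracted with a kit for lipid-rich tissue and scanned by the authors, who exported bead signals from BeadStudio. A deposited table holds each probe's intensity on a linear scale, not normalized between arrays, with a detection p-value that the authors computed against negative control beads. A further deposited table holds intensities normalized by the authors between arrays (142.6 to 19393, with the ranks of the raw signals within each array). The steps behind it are not given in the sources used here.

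Raw signals of the 72 arrays were background corrected, quantile normalized and taken to log2 with neqc in limma 3.58.1 (R 4.3.3). Probes called above background (detection p below 0.05) by 3 or more arrays numbered 18083 of 25697, and these were tested. Symbols updated through the platform annotation gave 23978 probes with 1 gene and 1719 with none. A gene was represented by its probe with the highest mean, which left 12265 genes. Median raw signals ran from 94.7 to 160.6 over the series, and the number of arrays limits the precision. No 2 arrays were identical. Labelled groups (17) were fitted in 1 limma model with 55 residual degrees of freedom and Benjamini-Hochberg adjustment over all tested probes. The fit was tested on simulated data.

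Members and gene lists were chosen with earlier results of these data known. Genes were named by a rule: the 12 largest non-overlapping differences in each direction among genes detected on all arrays of the higher set, non-overlapping list members over 1 log2 unit apart, all members of the lipolysis and brown thermogenic lists, the 3 genes with the largest rise and fall called in each labelled comparison, and genes both called and not overlapping. Only a part of the genes that met this rule is given above. Others named were chosen after their values were seen. Promoters (250 bases before to 50 after the start) came from RefSeq on GRCm38.p6. Alternatives were other normalizations and background corrections, filters, thresholds, fits, array weights, a replicate block, the number in the sample names as a random block, the rule's limits and labels, and leaving out arrays.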

Additional observations from a re-analysis of the deposited data

Results flagged for a closer look

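Among the 5 control BAT arrays at 3 months, a value was listed when the gap between 1 array and the nearest of the other 4 exceeded 0.71 of the range (Dixon's critical ratio). Of 139 genes examined 14 met this, and of 50 gene lists 5, and chance lists about 1 in 20 groups. Some of the 139 genes were chosen after their values were seen, so the 14 are not comparable with that share.

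Counting genes chosen after their values were seen, more of the listed values lay on control replicate 1 than on any other control array. Its Fkbp5 (9.41 against 5.69 to 6.56 on the other 4), Tsc22d3 (10.64 against 9.00 to 9.19) and Nfil3 (10.17 against 7.70 to 8.16) were high, and its Nr1d1 (7.24 against 8.62 to 9.03) was low. These 4 genes, and S1pr5 below, were chosen after their values were seen. Without them replicate 1 no longer had more of the listed values than replicate 5. Fkbp5 and Tsc22d3 are glucocorticoid targets, and Nfil3 and Nr1d1 belong to the clock. On the same array the mean of the glucocorticoid-responsive genes was 10.54 and that of the smooth muscle and pericyte genes 7.35, both the highest of the 5, and the mean of the fibroblast and progenitor genes was 6.4, the lowest. Mgll, the monoglyceride lipase, was lowest there at 11.46, as were Esrra at 10.39 and S1pr5 at 5.41. Over all 12265 genes, replicate 1 stood apart in 471, replicate 2 in 226, and replicates 3 to 5 in 110, 158 and 132.

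Replicate 5 was lowest for Cidea (13.49), Slc27a2 (10.49) and Ccno (5.85) and highest for Cdsn (5.82) and for the mean of the TCA cycle genes (11.15). Replicate 3 was highest for Epdr1 (6.21) and lowest for Ddt (9.06). Replicate 4 was lowest for Lyz1 (10.34). Replicate 2 was highest for the mean of the mesothelial genes (5.53).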

How the results depend on the processing

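The counts of non-overlapping genes, 264 above and 205 below, were the same on the authors' values, without background correction and with an offset of 50, by construction, since these keep the ranks within an array and give arrays 1 distribution. Scaling to a common median gave 294 and 140, under which 15 of 86 named non-overlapping genes overlapped and 71 did not. They stayed within 1.5 times with other filters, with a limit of 8 for Lipe and over all probes. The same held with the 6 arrays labelled BAT and without the array labelled control. A limit of 9 for Lipe and higher limits for Pnpla2 and Ucp1 each took the same 8 arrays, so these limits could not change the counts. With only the other arrays labelled 3 months they were 561 and 620. Without the 3 control arrays of highest liver-type signal, a choice made after seeing the data, they were 808 and 650. Leaving out single arrays gave 282 to 476 above (476 without control replicate 1) and 229 to 369 below (369 without ATGLAKO BAT at 12 months replicate 1). Fewer arrays overlap less by construction.

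The labelled comparisons depended strongly on the setting, and the cause was not tested. Counts follow in the order control WAT at 3 months, ATGLAKO BAT at 3, 7 and 12 months, ATGLAKO WAT at 3 months, where the main counts were 2, 10, 44, 5 and 288. On the authors' values they were 1, 1, 5, 1 and 78, without background correction 1, 1, 5, 1 and 117, with an offset of 50 they were 0, 4, 18, 1 and 170, and with a common median 0, 2, 16, 0 and 1052. The split of higher to lower calls against ATGLAKO WAT, 95 to 193 in the main fit, was 20 to 58 on the authors' values, 26 to 91 without background correction, 47 to 123 with the offset and 42 to 1010 with a common median, and at 7 months it was 21 to 23, 4 to 1, 3 to 2, 9 to 9 and 2 to 14. Fits of each pair of groups alone gave 0, 43, 13, 0 and 125. At an adjusted p under 0.01 with no fold minimum they were 6, 31, 97, 9 and 742, and at 0.05 with a log2 difference over 1 they were 21, 52, 375, 12 and 1156. With array weights, whose estimation did not fully converge, they were 303, 61, 226, 10 and 1197. With no detection filter the first was 1. Trend and robust variances and a stricter filter kept them within 1.5 times.

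With the replicate number as a block the counts were 1, 10, 17, 5 and 271. The labels do not tie these numbers to animals, and same-numbered arrays deviated together (correlation over 0.1) in 5 of 21 pairs, with a range of -0.23 to 0.19. The sample names carry other numbers, 13 of which recur in BAT and WAT of a genotype, but 1 alone ties a control BAT array at 3 months (replicate 1) to an array of a compared group (control WAT replicate 3, correlation -0.038), so these numbers gave no fixed block. As a random block in limma, a choice made after seeing the data, they gave 3, 11, 46, 5 and 288. Leaving out single arrays gave 0 to 10, 3 to 18, 10 to 178, 3 to 6 and 117 to 809. The extremes fell without control WAT replicate 1 or 3 (0) and 2 (10), ATGLAKO BAT at 3 months replicate 3 (3) and 2 (18), ATGLAKO BAT at 7 months replicate 2 (10) and 3 (178), and ATGLAKO WAT replicate 3 (117) and 5 (809). For ATGLAKO BAT at 12 months the count of 3 came from leaving out its replicate 3, or else replicate 2 or 4 of the control arrays.

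The spread among the control arrays was 0.211, 0.0683 on the authors' values and 0.176 to 0.212 with single arrays left out. Signals near background limit the dim genes, whose folds shrink on scales with a higher floor.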
